A study of Zea mays with 12 samples.

Results

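Wild-type maize endosperm held a small set of transcripts that stood above every mutant library of the study. The set comprised 20 of the 39448 gene models in the table. A model was included when its WT level, taken as the mean FPKM of 3 libraries plus 0.5, was at least 1.7 times the level of each mutant genotype and lay between 5 and 300, and when all 3 WT libraries exceeded all 9 mutant libraries. Endosperm of 4 genotypes was profiled 16 days after pollination: the PbfRNAi;o2 line, which carries both lesions (called the double genotype below), the opaque2 mutant (o2), an RNA interference line that targets the Pbf gene (PbfRNAi), and wild type (WT), with 3 biological replicates each. All were grown in the same field. The allele of opaque2, the promoter and number of events of the interference construct, the genetic background of each line, and any pooling of kernels are not stated in what was used here. FPKM counts fragments in relation to transcript length and to the fragments mapped in a library. The members were selected on the FPKM of every genotype against WT, so levels relative to WT are given as a description, without a test.

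O2, of the bZIP family, and PBF, of the Dof family, are transcription factors of the endosperm. O2 binds ACGT-containing elements and PBF the prolamin box in promoters of the zeins, the chief storage proteins of maize kernels, and the factors are known to interact. Both are also known to act on genes outside storage protein synthesis.

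The transcript of o2 averaged 0.462 ± 0.297 FPKM in the double genotype, 0.467 ± 0.268 in o2, 119 ± 19.3 in PbfRNAi and 204 ± 22.01 in WT (SD, n = 3 each). That of pbf1 averaged 59.5 ± 4.97 in the double genotype, 293 ± 45.9 in o2, 46.6 ± 9.09 in PbfRNAi and 103 ± 6.41 in WT. The interference lines thus kept pbf1 transcript, and all o2 libraries lay above all WT libraries in it. FPKM sums per library ran from 430405 to 519817, and the read depth is unknown. Replicates 2 and 3 of a genotype correlated across genes at r = 0.989 to 0.995 and replicate 1 with either at 0.955 to 0.970, so replicate 1 stood apart in every genotype. Genes are not independent replicates. In bulk tissue, fewer cells of a type and less RNA per cell cannot be told apart.

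Few genes had this pattern. Of 8670 models with a WT level in the window, 314 had their highest mean in WT, and 53 had all WT libraries above all mutant libraries. At the 1.7-fold threshold 24 remained. The rule leaves out o2 itself and the alpha-zein models z1C1_11, z1C1_1 and z1C1_6 by identifier, which gave the 20 members, 0.231% of the models in the window. A single model with a WT level above the window met the rest of the rule, the alpha-zein z1C1_12. Just outside the threshold, GRMZM2G086714 had a ratio of 1.68, GRMZM2G117956 of 1.64 and GRMZM2G107073 of 1.58. Just inside it were GRMZM2G091201 at 1.73, GRMZM2G144083 at 1.74 and GRMZM2G359102 at 1.76.

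The members are mostly genes without a name. Of the 20 identifiers 13 matched the reference table, 12 of them as protein-coding genes and 1, GRMZM2G021973, as a transcribed pseudogene. One carries a protein name: GRMZM2G149923 is listed as calmodulin, a calcium-binding protein that passes calcium signals to other proteins. Calmodulins are a family of very similar genes, so its level is uncertain where reads were shared between copies. The table lists mde1 as a synonym of GRMZM2G155281. The other members have no annotated function in the sources used here and are given by identifier. Among the 13 matched members none had another member within 5 genes in the reference gene order.

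The set held mostly transcripts of low to moderate level. The mean WT level ranged from 4.62 FPKM for GRMZM2G056750 to 117 for GRMZM2G003409, with a median of 10.6. In WT, 5 members averaged 30 FPKM or more and 14 under 15. The ratio of the WT level to that of the highest mutant ranged from 1.73 to 10.7 with a median of 2.16, and was at least 2 in 10 members and at least 3 in 4. The members passed the filter of the test below, a minimum FPKM of 1 in 3 or more libraries, but 3 of them, GRMZM2G021973, GRMZM2G080466 and GRMZM2G119287, did so only through their WT libraries.

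**Figure D1:**
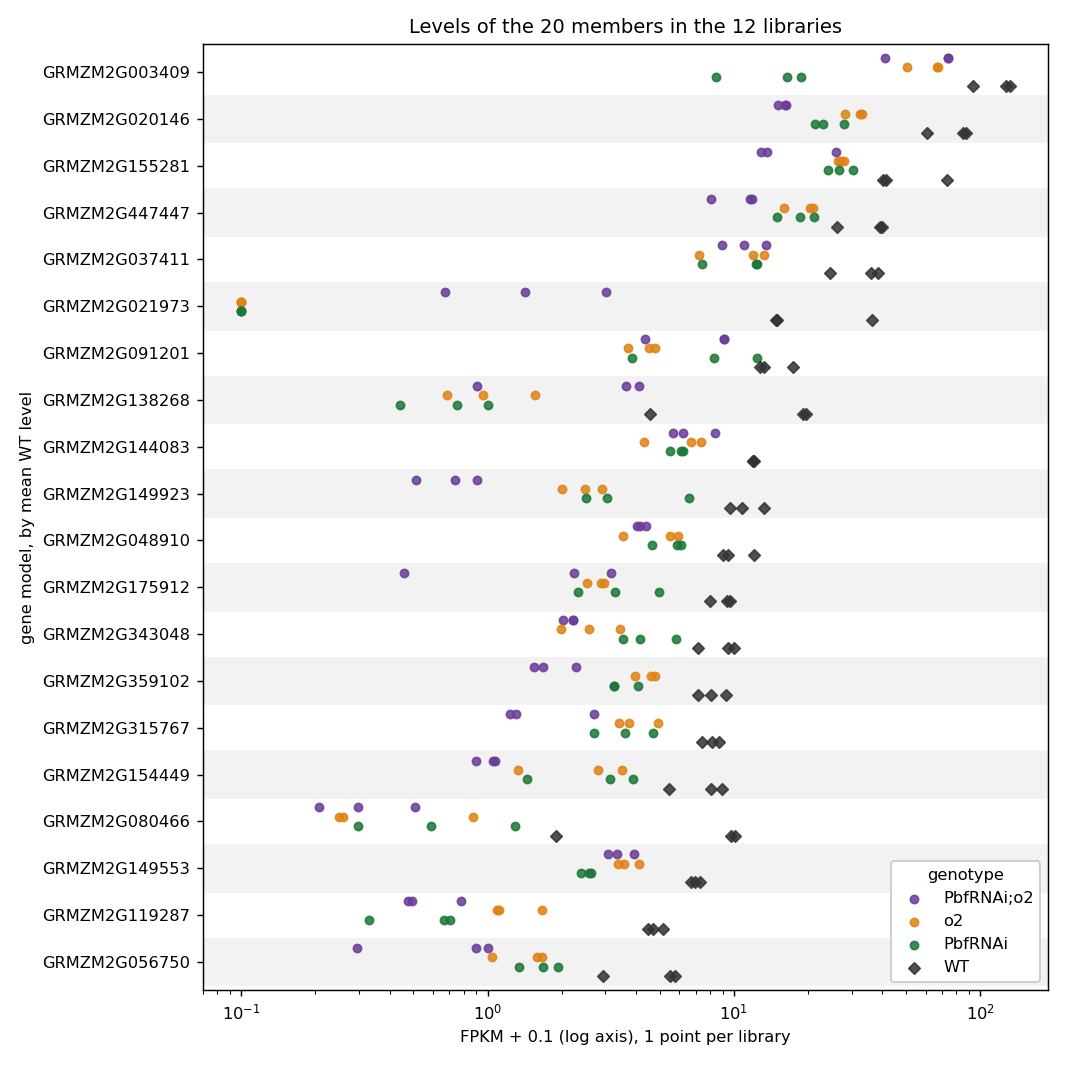
FPKM plus 0.1 of each of the 20 members (log axis) in each of the 12 libraries, 1 point per library, with genotypes by colour. WT points lie to the right of the mutant points in every row, by a ratio of lowest WT to highest mutant library that is smallest for GRMZM2G091201 at 1.02.

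The most abundant member, GRMZM2G003409, was low in the PbfRNAi line and less so in the other mutants. Its FPKM was 40.9, 73.5 and 73.7 in the double genotype, 50.4, 66.5 and 67.1 in o2, 8.39, 18.5 and 16.4 in PbfRNAi, and 92.9, 132 and 127 in WT. The PbfRNAi libraries lay below all others, and the double and o2 libraries overlapped each other. Relative to WT the means stood at 0.535 in the double genotype, 0.523 in o2 and 0.123 in PbfRNAi.

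GRMZM2G020146 had its lowest level in the double genotype. The FPKM values were 16.05, 16.2 and 15.04 in the double genotype, 28.1, 32.9 and 32.4 in o2, 21.2, 22.8 and 27.7 in PbfRNAi, and 60.7, 87.4 and 84.7 in WT. The 4 genotypes did not overlap in this gene. GRMZM2G447447 showed a similar order, with 8.001, 11.7 and 11.5 FPKM in the double genotype, 15.8, 20.3 and 20.8 in o2, 14.8, 18.5 and 20.9 in PbfRNAi, and 26.1, 39.01 and 39.7 in WT. Here o2 and PbfRNAi overlapped, and the double genotype lay below both.

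The calmodulin gene GRMZM2G149923 was also lowest in the double genotype. It stood at 0.808, 0.639 and 0.412 FPKM there, at 1.91, 2.82 and 2.38 in o2, at 6.49, 2.41 and 2.94 in PbfRNAi, and at 13.1, 10.7 and 9.54 in WT. The double mean was 0.0558 of the WT mean, the o2 mean 0.213 and the PbfRNAi mean 0.355. Libraries of o2 and PbfRNAi overlapped, and those of the double genotype lay below all others.

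In GRMZM2G037411 the 3 mutant genotypes were alike in mean level. It averaged 11.03 ± 2.32 FPKM in the double genotype, 10.7 ± 3.16 in o2, 10.6 ± 2.86 in PbfRNAi and 32.9 ± 7.38 in WT (SD, n = 3 each), and the mutant libraries overlapped. GRMZM2G144083 was similar in this respect, with means of 6.64 ± 1.42 in the double genotype, 6.01 ± 1.58 in o2 and 5.83 ± 0.361 in PbfRNAi, against 11.9 ± 0.0200 in WT.

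GRMZM2G155281, which the table also lists as mde1, stood at 25.96, 13.5 and 12.8 FPKM in the double genotype, 26.3, 27.97 and 27.2 in o2, 30.35, 26.5 and 23.997 in PbfRNAi, and 72.8, 41.2 and 40.2 in WT. Replicate 1 was the highest double and the highest WT library, and the 3 mutants overlapped except that the double libraries lay below those of o2. GRMZM2G091201 had the narrowest separation, with 4.27, 9.02 and 8.98 in the double genotype, 3.62, 4.69 and 4.41 in o2, 3.76, 8.19 and 12.4 in PbfRNAi, and 17.2, 12.6 and 13.2 in WT. Its PbfRNAi replicate 3 came close to the lowest WT library. GRMZM2G048910 averaged 4.098 ± 0.183 in the double genotype, 4.89 ± 1.26 in o2, 5.45 ± 0.787 in PbfRNAi and 10.08 ± 1.66 in WT. GRMZM2G175912 averaged 1.86 ± 1.38 in the double genotype, 2.699 ± 0.225 in o2, 3.42 ± 1.32 in PbfRNAi and 8.91 ± 0.912 in WT (SD, n = 3 each). In both genes the mutant means were ordered double, o2, PbfRNAi from low to high, with overlapping neighbours.

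In GRMZM2G021973, GRMZM2G080466 and GRMZM2G138268 the WT mean was a high multiple of every mutant mean, and the libraries of a genotype varied widely. The pseudogene GRMZM2G021973 stood at 0.569, 1.31 and 2.91 FPKM in the double genotype, was listed at 0 in all o2 and all PbfRNAi libraries, and stood at 36.2, 14.8 and 14.9 in WT. A value of exactly 0 can be a failed estimate, so no fold is given against those genotypes, and this gene is left out wherever 19 members are counted. GRMZM2G080466 stood at 0.197, 0.107 and 0.409 in the double genotype, 0.150, 0.159 and 0.770 in o2, 0.199, 0.487 and 1.19 in PbfRNAi, and 1.80, 10.00 and 9.66 in WT. GRMZM2G138268 stood at 0.804, 3.56 and 4.03 in the double genotype, 1.45, 0.587 and 0.860 in o2, 0.340, 0.649 and 0.905 in PbfRNAi, and 4.47, 19.4 and 19.01 in WT. In GRMZM2G080466 and GRMZM2G138268 WT replicate 1 was the lowest WT library by far, and in GRMZM2G138268 it was only 1.11 times the highest mutant library, while in GRMZM2G021973 and GRMZM2G155281 it was the highest.

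Over the 19 members without such zeros, the median ratio of means to WT was 0.215 in the double genotype (range 0.0333 to 0.559), 0.331 in o2 (0.0503 to 0.544) and 0.369 in PbfRNAi (0.0441 to 0.565). The double genotype had the lowest mean of the 3 mutants in 12 members, PbfRNAi in 6 and o2 in 1, which was GRMZM2G091201. The highest mutant mean was that of the double genotype in 4 members, of o2 in 7 and of PbfRNAi in 8. Neighbouring genotypes in these orders often overlapped, and the tests below say where they differed.

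**Figure D2:**
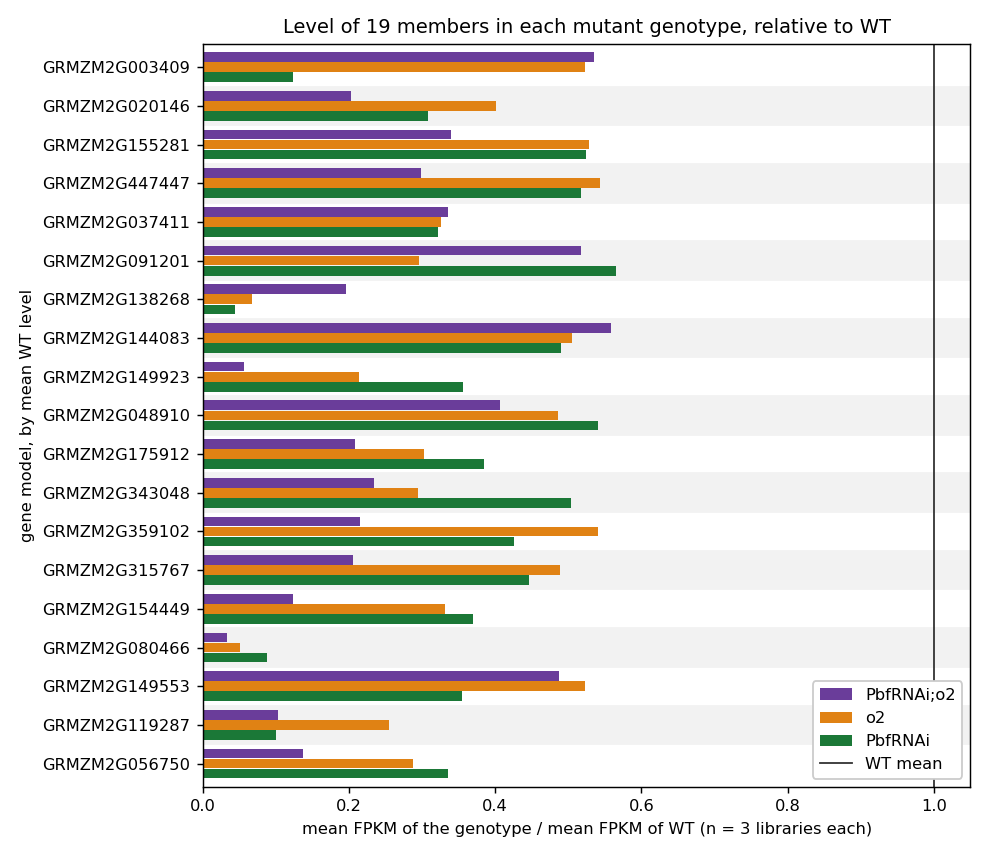
Mean FPKM of each mutant genotype divided by the mean FPKM of WT for 19 members (n = 3 libraries each), with a line at the WT mean. The double bar is the shortest in 12 members, the PbfRNAi bar in 6 and the o2 bar in 1.

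The separation was also described within each replicate number, from the same values that the rule used, so it is no independent check. Within replicate 1 the WT value, with 0.5 added to each library, was at least 1.7 times every mutant in 18 of 20 members, and within replicates 2 and 3 in 15 each. WT lay above every mutant of the same number in 20 of 20 members in each of the 3 replicates, as the rule requires. The median ratio of replicate 1 to the mean of replicates 2 and 3 over 19 members was 0.980 in the double genotype, 0.794 in o2, 0.725 in PbfRNAi and 0.834 in WT, against 1.11, 0.894, 1.02 and 1.08 over all 17058 tested genes in the same order.

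The choice of the set depended on the scale. An FPKM value depends on the rest of its library, and the typical gene was higher in the mutants. The shift in log2 FPKM that median-of-ratios scaling took away was 0.61 for the double genotype against WT, 0.55 for o2 against WT and 0.20 for PbfRNAi against WT. The members were thus low in mutants on a scale where most genes were high. On the scaled values the number of members by the same rule was 52, with the 20 among them. Without WT replicate 1 the rule was met by 32 models, 16 of them members, and GRMZM2G048910, GRMZM2G091201, GRMZM2G155281 and GRMZM2G359102 no longer met it. Over all left-out single libraries and 2 other added constants, 11 members always met the rule.

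How the members differed between mutant genotypes was tested, because on unscaled FPKM the rule treats the 3 mutants alike and does not fix their order. It does hold every mutant below WT, so a gene raised above WT in any mutant cannot be a member. All tested genes met no such limit. The shares over them are therefore a description, and part of the gap to the members can follow from the rule. Scaling took away a larger shift against WT in the double genotype (0.61) and o2 (0.55) than in PbfRNAi (0.20). On scaled values the rule thus asked for a larger fall in the double genotype and o2 than in PbfRNAi. Part of the scaled differences from PbfRNAi can therefore also follow from the rule. The test was limma on log2(FPKM + 1) over 17058 genes, with p-values adjusted by the Benjamini-Hochberg method over all of them and a threshold of 0.05. Log2 differences are on that scale, on which changes of low genes appear too small. The labels call the replicates biological without naming the plants behind them, so the p-values measure the spread between these libraries.

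Several members were lower in the double genotype than in o2. Of 19 members, 6 were lower in the double genotype than in o2 and none was higher, against 7.84% of all tested genes lower and 14.4% higher. At an unadjusted p under 0.05, 9 were lower and 0 higher, a count with no share over all tested genes beside it. The 19 include GRMZM2G080466 and GRMZM2G119287, which passed the filter only through WT. Fitted on the 9 mutant libraries only, which leaves these out, 5 of 17 members were lower and 0 higher, against 6.75% and 12.8% of the genes tested there. The median log2 difference was −0.51 over the members and 0.05 over all tested genes. On scaled values 7 were lower and 0 higher, against 10.3% and 12.7% of all tested genes. Libraries of the double genotype lay wholly below those of o2 in 9 members and wholly above in 0, against 13.9% and 25.9% of all tested genes.

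The calmodulin gene GRMZM2G149923 differed most, by −1.05 ± 0.25 (SE; limma adjusted p = 0.00943). GRMZM2G359102 fell to 1.58, 1.44 and 2.18 FPKM in the double genotype, against 4.68, 4.51 and 3.87 in o2 (−0.98 ± 0.14, limma adjusted p = 0.00039). GRMZM2G020146 fell by 0.93 ± 0.15 (limma adjusted p = 0.000654). GRMZM2G315767 stood at 2.60, 1.205 and 1.14 in the double genotype and 4.81, 3.64 and 3.30 in o2 (−0.92 ± 0.22, limma adjusted p = 0.00877). In these 4 genes the double and o2 libraries did not overlap. GRMZM2G447447 differed by −0.82 (limma adjusted p = 0.0106). The remaining call, GRMZM2G119287, was tested at all only because of its WT libraries, and it was lost without double replicate 2 (limma adjusted p = 0.0712), double replicate 3 (0.0781) or o2 replicate 2 (0.0881).

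Some differences between the double genotype and o2 depended on how replicate 1 was treated. With the replicate number as a block, GRMZM2G056750 (limma adjusted p = 0.0108, against 0.13), GRMZM2G154449 (0.00511, against 0.0711) and GRMZM2G155281 (0.0179, against 0.0829) were also lower. Without the 4 replicate 1 libraries 11 members were lower and 2 higher, and the higher pair were GRMZM2G138268 and GRMZM2G091201. The share of all tested genes called is not given for that fit or for the block, so these counts have no background. With all libraries GRMZM2G138268 differed by 0.84 ± 0.51 (limma adjusted p = 0.279) and GRMZM2G091201 by 0.63 ± 0.34 (limma adjusted p = 0.219).

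Set against PbfRNAi, the double genotype had lower levels of several members and higher levels of a pair. Of 19 members, 8 were lower in the double genotype than in PbfRNAi and 2 were higher, against 6% of all tested genes lower and 38.9% higher. The median log2 difference was −0.56 over the members and 0.32 over all tested genes. The typical gene was shifted by 0.40 in log2 FPKM in this comparison, and on scaled values 11 members were lower and 1 higher, against 14.4% and 13.4% of all tested genes. Double libraries lay wholly below those of PbfRNAi in 8 members and wholly above in 2, against 7.9% and 46.6% of all tested genes. Fitted on the 9 mutant libraries only, 9 of 17 members were lower and 2 higher, against 5.57% and 37.2% of the genes tested there. This comparison and the previous one share the double libraries.

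GRMZM2G003409 was the clearest exception to the lower levels, at 62.7 ± 18.9 FPKM in the double genotype and 14.4 ± 5.35 in PbfRNAi (log2 difference 2.06 ± 0.29, limma adjusted p = 0.00025; scaled 1.68, limma adjusted p = 0.00259). Its double libraries lay above all PbfRNAi libraries, in 3 of 3 replicates. Its double and o2 libraries overlapped (log2 difference −0.01 ± 0.29, limma adjusted p = 0.992). GRMZM2G149553, the other member called higher, averaged 3.35 ± 0.437 in the double genotype and 2.44 ± 0.119 in PbfRNAi (0.34 ± 0.12, limma adjusted p = 0.0325). That call was lost on scaled values (log2 difference 0.04, limma adjusted p = 0.827), on the 9 mutant libraries only (0.0565), without double replicate 1 (0.0995) or 2 (0.0639), and without PbfRNAi replicate 2 (0.0959) or 3 (0.067).

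Among the 8 that were lower, the calmodulin gene GRMZM2G149923 again had the largest difference (−1.53 ± 0.25, limma adjusted p = 0.000547). GRMZM2G343048 stood at 2.13, 1.92 and 2.11 FPKM in the double genotype and 3.45, 4.04 and 5.74 in PbfRNAi (−0.80 ± 0.19, limma adjusted p = 0.00492). GRMZM2G359102 fell by 0.70 ± 0.14 (limma adjusted p = 0.00224) and GRMZM2G447447 by 0.75 ± 0.20 (limma adjusted p = 0.00956). GRMZM2G020146 differed by −0.56 (limma adjusted p = 0.00918) and GRMZM2G315767 by −0.81 (limma adjusted p = 0.0101). In all but the last of these the libraries did not overlap.

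The 2 remaining falls were less firm. GRMZM2G154449 stood at 0.798, 0.956 and 0.974 in the double genotype and 1.34, 3.04 and 3.80 in PbfRNAi (−0.90 ± 0.29, limma adjusted p = 0.025), and its call was lost without any 1 of the double libraries (limma adjusted p 0.0653, 0.0528 and 0.0517 for replicates 1, 2 and 3) or PbfRNAi replicate 2 (0.0845) or 3 (0.0965). GRMZM2G056750 (−0.67 ± 0.23, limma adjusted p = 0.036) was not called without double replicate 1 (limma adjusted p = 0.136), PbfRNAi replicate 2 (0.0874) or PbfRNAi replicate 3 (0.104). With the replicate block GRMZM2G155281 (limma adjusted p = 0.0113, against 0.0552) and GRMZM2G175912 (0.0313, against 0.094) were also lower.

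**Figure D3:**
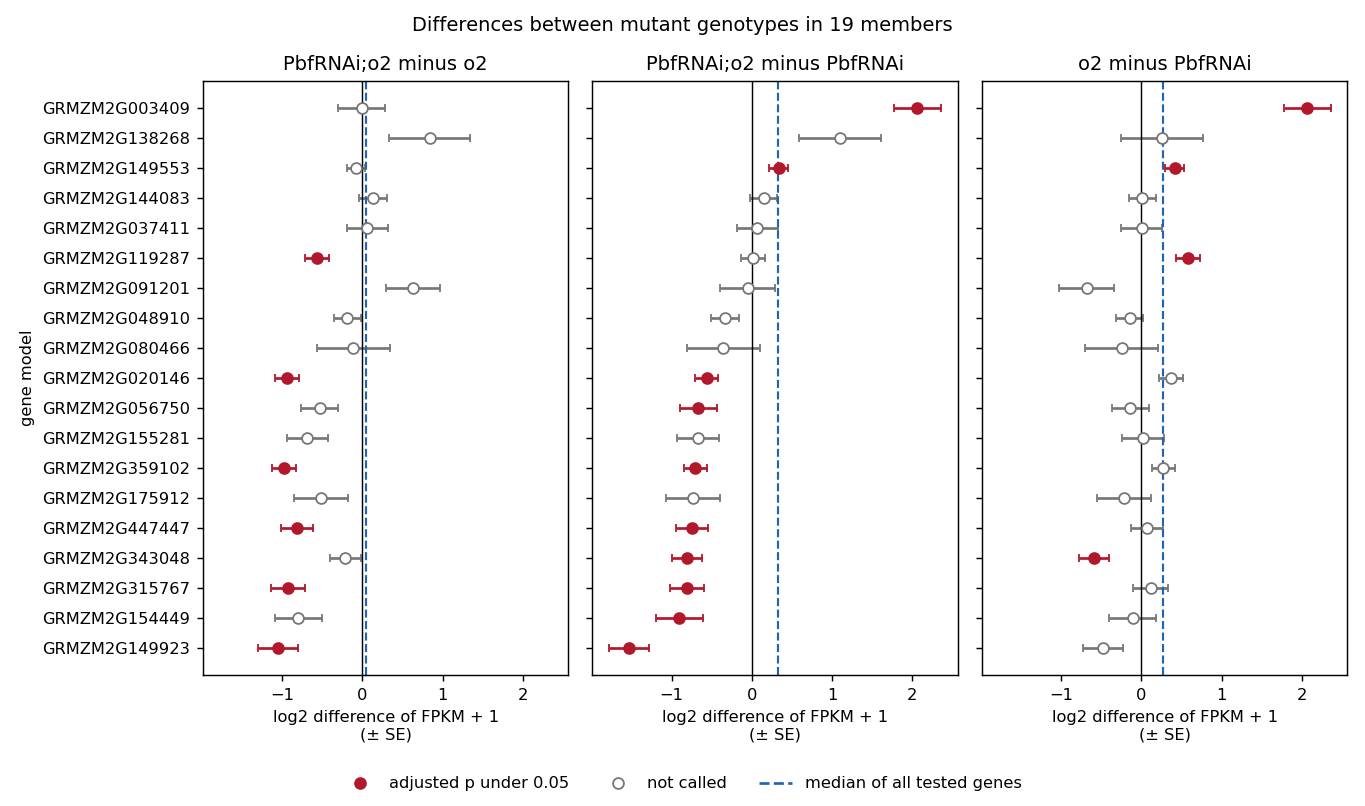
Log2 difference of FPKM + 1 with its SE for 19 members in the 3 comparisons between mutant genotypes (n = 3 libraries per genotype). Filled points have an adjusted p under 0.05, and the dashed line marks the median of all tested genes. GRMZM2G080466 and GRMZM2G119287 passed the filter only through WT. Called members lie left of 0 in 6 of 6 cases for the double genotype against o2 and in 8 of 10 for the double genotype against PbfRNAi.

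The single genotypes were compared in the same way, and the counts are given as a description. Of 19, 3 were higher and 1 lower in o2 than in PbfRNAi, against 34.8% and 9.97% of all tested genes. The median log2 difference was 0.01 over the members and 0.27 over all tested genes. On scaled values, which removed a shift of 0.34, 2 were higher and 3 lower, against 14.1% and 17.6% of all tested genes. Fitted on the 9 mutant libraries only, which leaves out GRMZM2G119287, 3 of 17 members were higher and 1 lower, against 33% and 9.39% of the genes tested there, with GRMZM2G020146 among the higher ones. Libraries of o2 lay wholly above those of PbfRNAi in 4 members and wholly below in 1, against 41.7% and 12.8% of all tested genes.

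GRMZM2G003409 was higher in o2 by 2.07 ± 0.29 (limma adjusted p = 0.000223; scaled 1.74). GRMZM2G119287 stood at 1.01, 1.56 and 0.993 FPKM in o2 and 0.230, 0.604 and 0.563 in PbfRNAi, without overlap, and was tested only because of its WT libraries, so no p is given. GRMZM2G149553 differed by 0.42 ± 0.12 (limma adjusted p = 0.012), a call lost on scaled values (limma adjusted p = 0.286). GRMZM2G343048 was lower in o2 (−0.59 ± 0.19, limma adjusted p = 0.0229), which did not hold without o2 replicate 2 (limma adjusted p = 0.104) or PbfRNAi replicate 3 (0.0978). With the replicate block GRMZM2G020146 was higher in o2 as well (log2 difference 0.37, limma adjusted p = 0.0234, against 0.057).

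The level of the double genotype was also set beside the product of the single ratios, the level it would have if each lesion lowered a transcript by the same factor in either background. WT enters this quantity and was selected as high, so the values are a description. With 0.5 added to each mean, the double level was 1.65 times the product in the median of 19 members (log2 0.72), and the range ran from 1.002 to 29.4 times. From the genotype means it was at or above the product in 19 of 19. Within single replicates several members fell below it. In replicates 1, 2 and 3 the log2 values were 1.23, −0.40 and −0.33 for GRMZM2G155281, and 0.41, 0.19 and −0.60 for GRMZM2G315767. The rule asks for a high WT and low single genotypes, which favours values above the product. It also asks for a low double genotype, which favours values below it. All tested genes, of which 38.3% lay above it with a median of −0.13 in log2, met no such rule, so the shares cannot be compared.

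Members differed in this quantity. In GRMZM2G359102, GRMZM2G315767 and the calmodulin gene GRMZM2G149923 the double level was 1.002, 1.02 and 1.02 times the product. In GRMZM2G138268 it was 29.4 times, in GRMZM2G003409 8.06 times and in GRMZM2G080466 5.84 times. In GRMZM2G080466 all mutant means are under 1 FPKM, and in GRMZM2G138268 those of o2 and PbfRNAi are. For GRMZM2G138268 the log2 value was 1.98 within replicate 1, 6.02 within replicate 2 and 5.53 within replicate 3. The double level stayed within 1 log2 unit of the product in 11 members.

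**Figure D4:**
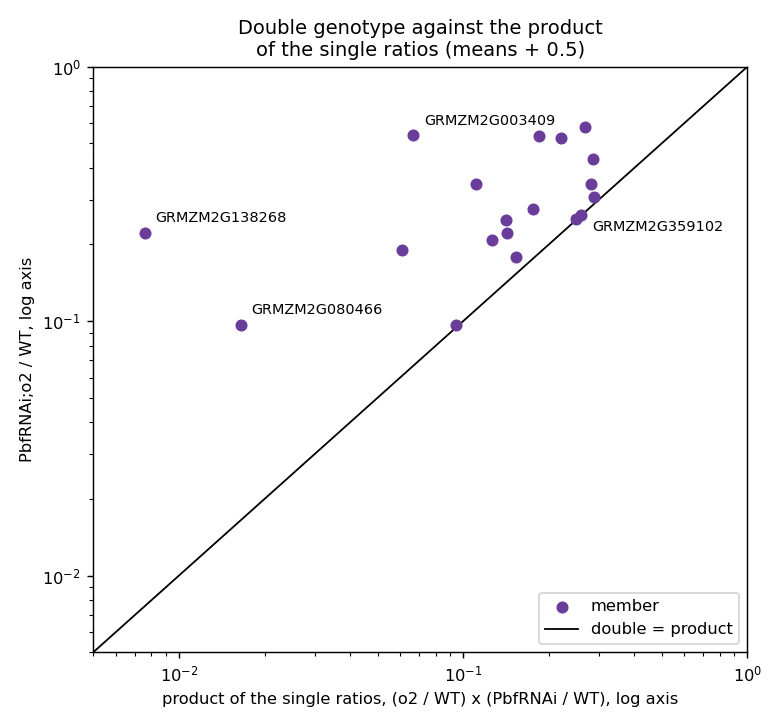
Double genotype level relative to WT against the product of the o2 and PbfRNAi ratios to WT for 19 members, from genotype means plus 0.5, on log axes. Points on the line, such as GRMZM2G359102 at 1.002 times the product, have a double level equal to the product, and GRMZM2G138268, at 29.4 times, lies farthest above it.

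No member was on any of 6 lists of endosperm genes: zeins, starch and sucrose, endoplasmic reticulum (ER) chaperones, endosperm regulators, amino acid and central carbon metabolism. For the zein and regulator lists this was partly set by the rule. It left out o2 and the alpha-zein models named above by identifier, and its window left out z1C1_12. The lists held 95 of the 39448 gene models, so few members could fall on them by size alone. They were made from symbols of the reference table, where 7 of the 20 members had no match. Those 7 could not be on a list, and no conclusion is drawn from the absence of members. Of 25 tested zein models 19 were lower and 2 higher in the double genotype than in WT, against 4.75% and 55.4% of all tested genes, with the same counts on scaled values, against 17.3% and 18.7%. In o2, 15 zein models were lower and 1 higher than in WT, against 2.63% and 48.6% of all tested genes (15 and 0 scaled, against 8.85% and 8.01%). In PbfRNAi, 6 were lower and 2 higher than in WT, against 5.16% and 18.2% (6 and 2 scaled, against 9.4% and 11.9%). Zein counts include models listed at 0 in at least 1 WT library, 5 of 26, where a 0 can be a failed estimate. ER chaperone genes, which help secretory proteins fold, numbered 14 higher and 0 lower of 18 in the double genotype against WT (11 and 0 scaled). They numbered 14 higher and 0 lower in o2 (4 and 2 scaled) and 9 higher and 3 lower in PbfRNAi (9 and 3 scaled). In the double genotype against WT, starch and sucrose genes were higher in 9 and lower in 1 of 18 cases (1 and 1 scaled), central carbon genes in 8 and 1 of 11 (6 and 1 scaled), amino acid genes in 1 and 2 of 8 (1 and 3 scaled), and endosperm regulators in 2 and 2 of 7 (2 and 5 scaled). These counts and those of the ER chaperones stand beside 55.4% higher and 4.75% lower of all tested genes (18.7% and 17.3% scaled). For o2 against WT the shares were 48.6% and 2.63% (8.01% and 8.85% scaled). For PbfRNAi against WT they were 18.2% and 5.16% (11.9% and 9.4% scaled).

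The tissue label was checked with marker genes. Markers of starchy endosperm, 9 models, summed to 37927 to 42737 FPKM in the double genotype, 46122 to 54607 in o2, 35828 to 50808 in PbfRNAi and 47513 to 63332 in WT. Basal transfer layer markers, 5 models, summed to 77.1 to 236 in the double genotype, 179 to 363 in o2, 42.4 to 108 in PbfRNAi and 105 to 158 in WT. Embryo markers, 5 models, summed to 393 to 537, 360 to 408, 326 to 639 and 348 to 388 in the same order. Aleurone markers, 2 models of which 1 was at 0 in all libraries, summed to 90.1 to 106, 81.6 to 122, 73.2 to 85.6 and 77.6 to 79.2. Markers of the embryo surrounding region summed to at most 11.7 and those of green tissue and pericarp to at most 0.394 in any library. The double genotype lay wholly below o2 and WT in the starchy endosperm sum and wholly above WT in the aleurone and embryo sums. Libraries of o2 lay wholly above WT in the aleurone and basal transfer layer sums. Of the marker symbols chosen, 2 of 7 were found for aleurone and 5 of 9 for embryo. The aleurone sum thus rests on 1 model, and 2 embryo models stayed under 1 FPKM in all libraries. The starchy endosperm markers include gamma and beta zein genes, so that sum is not separate from zein level. These sums are not scaled, and the typical gene was higher than in WT by 0.61 in log2 FPKM in the double genotype and by 0.55 in o2. The part of these marker levels in the results on the members was not tested.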

How the data were processed

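RNA of endosperm 16 days after pollination was sequenced in 12 libraries, 3 per genotype, as 125 nt paired reads after ribosomal RNA removal, per the labels' protocols. FastQC, TopHat, Bowtie2, Cufflinks and the build B73 RefGen_v3 are named in the submitters' processing notes, without versions, settings or a gene annotation. The deposited values are FPKM per gene model, 1 column per library, and read depth is unknown, so no counting interval is given.

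The members and gene lists were chosen with earlier results of these data known. Differences were fitted with limma 3.58.1 (R 4.3.3) on log2(FPKM + 1) for genes that reached FPKM 1 in 3 or more libraries, in 1 model of 4 genotype means over 12 libraries, with trended and robust empirical Bayes, two-sided, and Benjamini-Hochberg adjustment over 17058 genes. The script was tested on simulated data. Named are the most abundant members, those with the largest and smallest ratios, and those called between mutants. Alternatives covered pseudocount, filter, scaling, replicate block, libraries left out and limma options. Same-numbered libraries of different genotypes deviated together from their genotype means (correlations 0.180 to 0.501 over 18 pairs). Replicates 2 and 3 of different genotypes did so too (0.137 to 0.313), and replicate 1 correlated negatively with other numbers (−0.425 to −0.177). The pattern thus set replicate 1 against the others more than it paired libraries by number. The main fit holds no replicate term, and the number entered only as a block in an alternative. Gene names come from a RefSeq table of another assembly, Zm-B73-REFERENCE-NAM-5.0, used without coordinates. The planned classes by product description and the promoter motif search were not run, because product descriptions and promoter sequences were not used here.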

Additional observations from a re-analysis of the deposited data

Results flagged for a closer look

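In GRMZM2G003409 and GRMZM2G149553 the o2 lesion went with lower levels beside WT in all libraries and with higher levels in all libraries when Pbf RNAi was already present. The difference between the effects was not tested, and the direction against WT is fixed by the rule that chose the members. GRMZM2G003409 averaged 62.7 FPKM in the double genotype against 14.4 in PbfRNAi, while o2 lay below WT. GRMZM2G149553 averaged 3.35 in the double genotype against 2.44 in PbfRNAi, while o2 lay below WT. Its difference between the double genotype and PbfRNAi was 0.04 in log2 on scaled values (limma adjusted p = 0.827), and its call was lost on the 9 mutant libraries only (0.0565). The pseudogene GRMZM2G021973 averaged 1.6 in the double genotype and was listed at 0 in o2 and in PbfRNAi. Those zeros can be failed estimates and the gene passed the filter only through WT, so no direction is drawn from it. Outlying samples were not sought, since each group has 3 libraries.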

How the results depend on the processing

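The number of members by the rule was 10 at a fold threshold of 2, 52 under either median-of-ratios scaling, and 18 to 32 with single libraries left out. Settings chosen after seeing the data gave 77 with scaling to the sum outside the 100 most abundant genes and 42 with no window. With the replicate block, the comparison of the double genotype with o2 had 9 members called, that with PbfRNAi 12, and that of o2 with PbfRNAi 5. Without the 4 replicate 1 libraries, 13 were called against o2, the median log2 difference was −0.37, and GRMZM2G037411 turned to −0.32 (against o2) and −0.30 (against PbfRNAi). The cause was not tested, and no share over all tested genes is given for the block or for the fit without replicate 1. The median against o2 was −0.72 with a pseudocount of 0.1 and −0.56 to −0.23 with single libraries left out. The median against PbfRNAi was −0.83 under either scaling and −0.59 to −0.33 with libraries left out. For o2 against PbfRNAi it was −0.31 under either scaling and −0.12 to 0.11 with libraries left out. Over single members, 358 of 378 values kept their side of the threshold without a called change of sign against o2, 342 against PbfRNAi and 362 for o2 against PbfRNAi. Of these, 10, 15 and 27 in the same order changed sign while not called in either fit. Leaving out a library of a genotype outside the comparison, or adding the replicate block, leaves the log2 difference as it was. Those settings could change only the p-value, so part of these counts was fixed in advance. Read depth is unknown, so what it limits cannot be stated.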
